A study of Mus musculus with 22 samples.

Results

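The right primary motor cortex (M1) of BERKO mice was compared with that of wild type (WT) mice, 11 of the 22 biopsies of the series. The biopsies were chosen by their labels alone: side right, genotype ERb-/- for the 5 BERKO mice and WT for the 6 WT mice. BERKO mice lack estrogen receptor beta, the product of Esr2. All mice were males on the C57BL/6 background, aged 16 to 20 weeks, and no treatment is given in the labels. Each right biopsy came from another mouse, taken by needle puncture, and 10 ng of its total RNA entered STRT sequencing, which reads the 5' end of each transcript copy. Per the design text 6 BERKO mice entered the study and the submitters removed 1 of their samples for standing apart; no values of BERKO replicate 1 were used here. The question addressed was which transcripts of the right motor cortex differ when the receptor is missing.

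Estrogen receptor beta is a nuclear receptor: bound by estradiol, it enters a dimer that binds DNA and changes the transcription of nearby genes. It belongs to the same superfamily as the glucocorticoid, mineralocorticoid and androgen receptors, several of which share ligands or cofactors. Motor cortex holds glutamatergic projection neurons and GABAergic interneurons among astrocytes, oligodendrocytes, microglia and vessels, so a biopsy mixes all of these.

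The right libraries held 658600 to 996400 reads in BERKO and 847700 to 2019000 in WT. Per library the 5' end features reported 10100 to 10700 genes with a read in BERKO and 10380 to 12170 in WT. Slc17a7, the vesicular glutamate transporter that marks cortical excitatory neurons, had reads in all 11 libraries. A principal component analysis of 5849 genes put 19.5% of the variance on its leading axis, where WT replicate 1 (at 48.26) and WT replicate 3 (at 25.32) stood apart from the other libraries (from -21.73 to 7.923). The calls and the medians of many gene lists are given below with and without these 2 libraries. Read as wells, the codes in the column names put the right BERKO biopsies in plate row D and the right WT biopsies in row A, so plate row and genotype cannot be told apart.

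Esr2 itself did not settle the genotype labels. It had 0 reads in all 5 BERKO libraries, which allows a level of up to 3.28 to 5.06 CPM (counts scaled to library size), and 3 reads in WT replicate 1 with 0 in the other WT libraries. These 3 reads lay in an upstream feature on the minus strand of chromosome 12 at 77278248 (build mm9, as are all positions of features here). In the left biopsies the library labelled BERKO replicate 3 had 6 Esr2 reads and the library labelled BERKO replicate 5 had 4, up to 16.73 CPM, while the other left BERKO libraries and all 6 left WT libraries had 0. All of these reads lay in a CDS feature at 77246443 on the same strand. The sources used here do not say which part of the gene is deleted, so whether these reads go against the 2 labels cannot be told; a feature outside the deleted part checks nothing. The right libraries of the same 2 mice had 0 Esr2 reads, and without BERKO replicate 3 or BERKO replicate 5 the right comparison called 0 and 3 genes by edgeR, against 5 with both; at an unadjusted p under 0.05 the numbers were 599 and 554 genes.

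Of 7696 genes tested, 5 passed an adjusted p of 0.05 (0.065% of all genes tested): 1 was higher in BERKO (0.013%) and 4 were lower (0.052%). Cdk5r1 rose, and Nr3c2, Uqcrb, Dcaf17 and Rpl22l1 fell. Levels are CPM of gene reads after TMM scaling, log2 changes are BERKO over WT with their standard error (SE), and adjusted p is from edgeR's quasi-likelihood test with Benjamini-Hochberg adjustment over all genes. Over all genes, 635 had an unadjusted p under 0.05 (8.25%), 341 higher (4.43%) and 294 lower (3.82%) in BERKO. The groups did not overlap for 79 genes (1.03%), and all 5 called genes are among them.

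Promoter sequences are shown for the called genes whose reads lay mainly at an annotated start and which the RefSeq table holds, Nr3c2 and Rpl22l1. Each line gives the 250 bases before the RefSeq start, 5' to 3' on the gene's strand, from RefSeq on GRCm38.p6. Capitals mark matches to the TATA motif TATAAA on either strand. The Nr3c2 bases are chr8:76902080-76902329 (plus strand) and the Rpl22l1 bases are chr3:28805258-28805507 (plus strand).
Nr3c2: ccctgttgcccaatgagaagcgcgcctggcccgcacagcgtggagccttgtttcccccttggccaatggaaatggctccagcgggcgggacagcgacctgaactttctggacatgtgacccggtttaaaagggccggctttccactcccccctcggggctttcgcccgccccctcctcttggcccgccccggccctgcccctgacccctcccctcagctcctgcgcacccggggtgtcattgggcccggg
Rpl22l1: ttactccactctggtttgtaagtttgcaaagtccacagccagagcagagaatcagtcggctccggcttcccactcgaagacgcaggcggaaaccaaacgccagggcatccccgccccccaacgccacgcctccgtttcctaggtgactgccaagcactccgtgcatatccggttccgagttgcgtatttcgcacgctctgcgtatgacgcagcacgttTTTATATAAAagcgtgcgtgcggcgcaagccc
In the Rpl22l1 window TATAAA matched on both strands, in overlapping positions. Of all 32851 promoter windows of this length, 12.4% held a match. The single repeat of the estrogen response element, AGGTCA on either strand, was in neither window, against 14.0% of all windows, and the full element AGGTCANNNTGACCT was in neither, against 0.0213%. These are letters in a window and describe no binding. The GC content was 68.4% for Nr3c2 and 57.6% for Rpl22l1, against a median of 52.4% over all windows.

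Nr3c2 encodes the mineralocorticoid receptor, which binds aldosterone and, in brain, mainly corticosterone. Its CPM in BERKO replicates 2 to 6 was 0, 0, 1.199, 0 and 0, against a lowest of 7.867, a median of 17.23 and a highest of 50.08 in WT. In reads, the BERKO libraries held 1 in all and the WT libraries 179, from 9 in WT replicate 2 to 80 in WT replicate 3. Every WT library was above every BERKO library. The gene passed the expression filter through its WT reads, so this separation adds no support to the test. Of 11 fits that left out 1 mouse, 5 tested it, each without a BERKO mouse. With any WT mouse left out it did not pass the filter. The 4 BERKO libraries with 0 reads allow up to 3.28 to 5.06 CPM each, below the lowest WT value. The ratio of the pooled reads per pooled effective library size, WT over BERKO, was 89.3, with a 95% counting interval of 15.8 to 3550. That interval leaves out the spread between mice. The log2 change was -5.88 ± 1.01. The adjusted p was 0.0200. Of its reads, 54.4% came from an upstream feature on chromosome 8 at 79426245 (plus strand), with 1 read in BERKO and 97 in WT; the rest lay in 5 other features. In the left biopsies BERKO replicate 2 had 14 Nr3c2 reads and the other 4 BERKO biopsies 0, while 4 of 6 left WT biopsies had 4 to 23 reads and the others 0. The gene did not pass the expression filter on the left. The difference between the sides had an unadjusted p of 0.103 (adjusted 0.998), so it was not shown to differ from the left.

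A steroid hormone list of 30 genes, of which 15 were tested beside Nr3c2, held no other call. Of these 15, 12 were above 0 and the median log2 change was 0.11, against -0.01 over all genes tested. The glucocorticoid receptor gene Nr3c1 had a log2 change of 0.55 ± 0.32 (unadjusted p 0.101), and the estrogen-related receptor gene Esrra 0.87 ± 0.73 (p 0.243). Nr2f1, an orphan nuclear receptor that patterns the cortex in development, averaged 16.9 ± 7.43 CPM in BERKO and 41.1 ± 20.3 in WT (SD, n = 5 and 6), with a log2 change of -1.28 ± 0.43 that missed the threshold (adjusted p 0.450).

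Uqcrb encodes a small subunit of respiratory complex III, which passes electrons from ubiquinol to cytochrome c. Its CPM in BERKO replicates 2 to 6 was 43.88, 35.80, 59.96, 128.1 and 77.63, against a lowest of 161.5, a median of 187.7 and a highest of 240.5 in WT. BERKO replicate 5 was the highest of its group and still below every WT library. The means were 69.1 ± 36.7 CPM in BERKO and 192.6 ± 27.2 in WT (SD, n = 5 and 6), a log2 change of -1.48 ± 0.27 with an adjusted p of 0.0200. Nearly all reads, 99.5%, came from a 5' UTR feature on chromosome 13 at 67006262 (minus strand). Uqcrb transcripts share 336 bases at 98.2% identity with Gm2962, so the reads of the 2 genes may not be separable. On the left the change was -1.12 ± 0.48 (unadjusted p 0.0339), and the difference between the sides had an unadjusted p of 0.528.

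The other subunits and assembly factors of complex III did not follow Uqcrb past the threshold. Of these 12 tested, 7 were above 0 and the median was 0.08. Uqcrfs1, the iron-sulfur subunit, had a log2 change of 0.46 ± 0.28 and Uqcrc2, a core subunit, -0.11 ± 0.17. Bcs1l, the chaperone that inserts the iron-sulfur subunit, averaged 16.1 ± 6.29 CPM in BERKO and 41.0 ± 23.3 in WT (SD, n = 5 and 6), with a change of -1.34 ± 0.48 and an adjusted p of 0.450. Of 68 nuclear genes of complexes I, II, IV and V, 32 were above 0, none was called, and the median was -0.01. Among them Atp5k had a change of -0.52 ± 0.19 (adjusted p 0.480) and Cox4i1 of 0.35 ± 0.15 (adjusted p 0.514).

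Rpl22l1 encodes a ribosomal protein, the paralog of Rpl22. Its CPM in BERKO replicates 2 to 6 was 0, 3.836, 3.598, 0 and 6.560, against a lowest of 22.47, a median of 33.38 and a highest of 42.05 in WT. No BERKO library came near the WT range. The means were 2.80 ± 2.81 CPM in BERKO and 32.6 ± 8.85 in WT (SD, n = 5 and 6), a log2 change of -3.39 ± 0.64 with an adjusted p of 0.0230. The reads lay mainly (91.3%) in a 5' UTR feature on chromosome 3 at 28704433 (plus strand). Transcripts of Rpl22l1 and of Gm15421, a gene annotated as noncoding, share 395 bases at 99.5% identity, and Gm15421 averaged 7.17 ± 5.84 CPM in BERKO and 30.5 ± 7.72 in WT without passing (adjusted p 0.280). The reads of the pair may not be separable. On the left, all 5 BERKO biopsies had 0 Rpl22l1 reads, against 4 to 26 in the WT biopsies. The left BERKO libraries were shallower, with a mean of 569600 total reads against 858000 in left WT. None of the other cytosolic ribosomal protein genes was called: of 81 tested, 65 were above 0 and the median was 0.16. Rpsa, which codes for a small subunit protein, had a change of 0.49 ± 0.16 (adjusted p 0.445).

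Dcaf17 encodes a substrate receptor of the CUL4-DDB1 ubiquitin ligase. Its CPM in BERKO replicates 2 to 6 was 3.376, 1.279, 3.598, 8.635 and 2.187, against a lowest of 11.89, a median of 33.93 and a highest of 68.24 in WT. WT replicate 6 was the lowest of its group, just above the highest BERKO library. The means were 3.82 ± 2.85 CPM in BERKO and 35.5 ± 18.4 in WT (SD, n = 5 and 6), a log2 change of -3.22 ± 0.59 with an adjusted p of 0.0200. The reads did not come mainly from the promoter: 87.1% lay in a 3' UTR feature on chromosome 2 at 70932262 (plus strand), which held 3 reads in BERKO and 261 in WT. On the left the gene averaged 16.4 ± 13.98 CPM in BERKO and 23.6 ± 10.2 in WT (SD, n = 5 and 6), and the groups overlapped. The left change was -0.45 ± 0.58 (unadjusted p 0.447). The change on the right minus that on the left was -2.59, with an unadjusted p of 0.00935 and an adjusted p of 0.998. Dcaf17 shares stretches of at least 80 bases with 49 other genes, the longest 161 bases at 95% identity.

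Cdk5r1 encodes p35, the neuronal activator of the kinase Cdk5, which phosphorylates tau and other cytoskeletal proteins. Its CPM in BERKO replicates 2 to 6 was 121.5, 139.4, 71.96, 116.6 and 82.00, against a lowest of 17.24, a median of 30.69 and a highest of 50.38 in WT. The 5 BERKO libraries were all above the 6 WT libraries. The means were 106.3 ± 28.3 CPM in BERKO and 33.6 ± 13.4 in WT (SD, n = 5 and 6), a log2 change of 1.67 ± 0.31 with an adjusted p of 0.0200. Almost all reads, 98.6%, came from a 3' UTR feature on chromosome 11 at 80293456 (plus strand), and 0% from its promoter classes. On the left the change was 0.70 ± 0.54 (unadjusted p 0.211), and the difference between the sides had an unadjusted p of 0.152. Of 16 tested genes on Cdk5 and tau, 13 were above 0 with a median of 0.24, and Cdk5r1 was the 1 called. Cdk5 itself had a change of 0.13 ± 0.21. Dab1, the reelin adaptor that Cdk5 also phosphorylates, averaged 255.8 ± 49.1 CPM in BERKO and 165.6 ± 48.3 in WT (adjusted p 0.445).

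**Figure D1:**
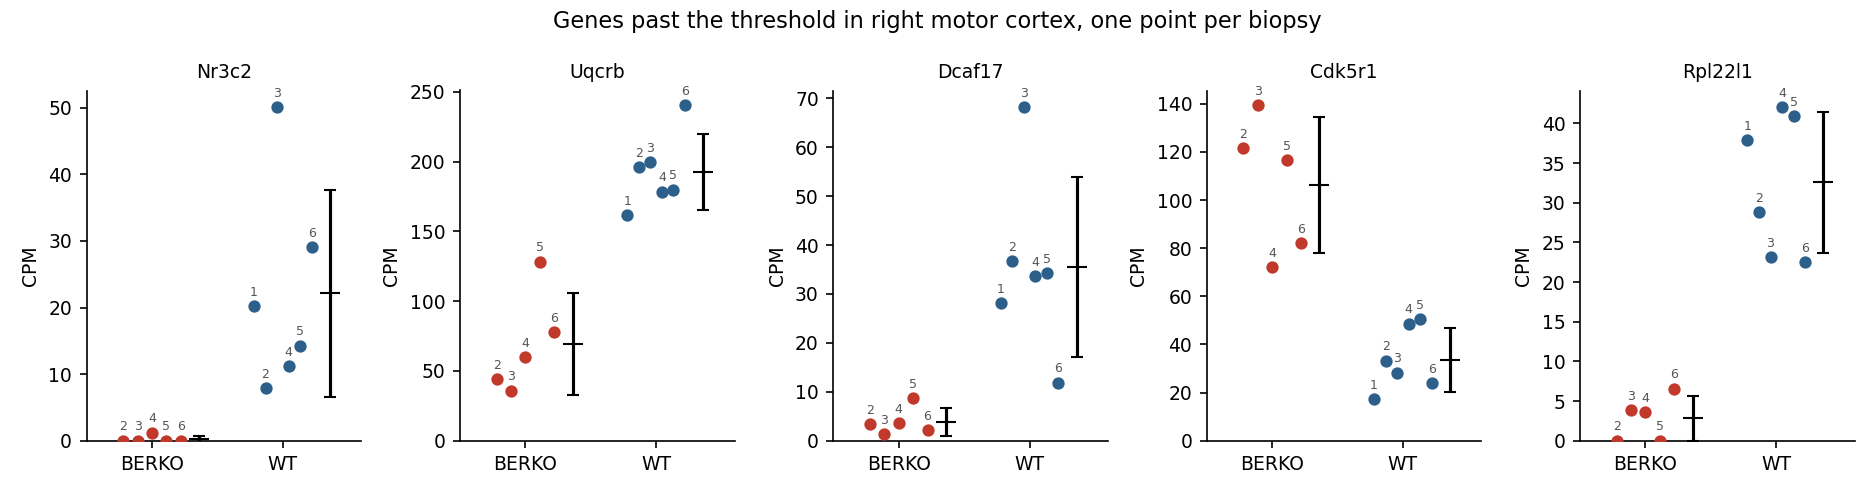
CPM of the 5 called genes in each right biopsy, BERKO on the left and WT on the right of each panel, with replicate numbers above the points. Black marks show the mean and SD of 5 BERKO and 6 WT libraries; in every panel the groups do not overlap, and only Cdk5r1 is higher in BERKO.

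How far these calls hold depended on the libraries. Leaving out 1 mouse at a time gave 0 to 6 calls: 0 without WT replicate 2, 3 or 5 or BERKO replicate 2, 3 or 4, and 6 without WT replicate 1 or 4. Without WT replicates 1 and 3 there were 3 calls by edgeR, of which Uqcrb was the 1 shared (adjusted p 0.0495). Cdk5r1 and Rpl22l1 missed the threshold there (adjusted p 0.0843 and 0.0687). Nr3c2 and Dcaf17 did not pass the expression filter in that fit and were not tested. The 5 genes kept their direction in every alternative that tested them. With features of the promoter classes alone, 0 genes were called by edgeR (411 had an unadjusted p under 0.05), and Uqcrb and Rpl22l1 each had an adjusted p of 0.123.

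Mitochondrial RNA was lower in BERKO. The mitochondrial genome encodes its own ribosomal RNAs and a set of respiratory chain subunits, transcribed from both strands as long precursors. Its reads made up 1.039%, 0.7691%, 0.8877%, 1.011% and 0.7704% of endogenous reads in BERKO replicates 2 to 6. In WT the lowest share was 1.396%, the median 1.839% and the highest 2.107%, so the groups did not overlap. The means were 0.896% ± 0.128 in BERKO and 1.82% ± 0.26 in WT (SD, n = 5 and 6; two-sided exact permutation p 0.00433, adjusted 0.0202 over 14 shares and totals). The left biopsies of the same mice had 0.746% ± 0.137 in BERKO and 1.51% ± 0.43 in WT (exact permutation p 0.00866, unadjusted). The log2 ratio of the right to the left share averaged 0.27 in BERKO and 0.31 in WT, with no difference shown by the exact permutation test (p 0.879).

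At the level of single 5' end features, 9550 were tested and 7 passed (0.0733%), 5 of them lower in BERKO (0.0524%). The 2 smallest p-values belonged to mitochondrial features on the plus strand that the annotation gives no gene. The first, spanning 11007 to 11543, had 62.50, 38.36, 61.90, 67.53 and 41.02 CPM in BERKO replicates 2 to 6, against a lowest of 204.5, a median of 333.7 and a highest of 494.1 in WT. The lowest WT library was well above every BERKO library. Its log2 change was -2.65 ± 0.25 with an adjusted p of 3.89e-06 by edgeR's test.

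The other, spanning 1 to 4808, held 73.0% of all mitochondrial reads. It had 7349, 5621, 6671, 8024 and 5727 CPM in BERKO replicates 2 to 6, against a lowest of 11880, a median of 15950 and a highest of 17380 in WT. Here too the groups were apart, with a log2 change of -1.20 ± 0.13 and an adjusted p of 1.08e-05. Without this feature the mitochondrial share was 0.305% ± 0.052 in BERKO and 0.461% ± 0.095 in WT (SD, n = 5 and 6; exact permutation p 0.0108, adjusted 0.0303), with 4 of 5 BERKO libraries below all WT libraries. Of the 13 mitochondrial features tested, 10 were below 0, against 51.6% of all features, with a median of -0.63. At an unadjusted p under 0.05, 5 of the 13 were lower, against 4.45% of all features. A feature with much signal lay above 0 without passing: the plus-strand feature spanning 5345 to 5676 averaged 528.7 ± 116.2 CPM in BERKO and 412.5 ± 52.6 in WT (SD, n = 5 and 6; log2 change 0.36 ± 0.17, adjusted p 0.472).

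Nuclear genes for mitochondrial RNA synthesis and stability showed no call among 16 tested, with 8 above 0 and a median of 0.01. Tfam, which packages mitochondrial DNA and takes part in its transcription, had a change of 0.32 ± 0.30. Ssbp1, the mitochondrial single-strand binding protein, averaged 42.4 ± 16.5 CPM in BERKO and 61.2 ± 40.8 in WT (adjusted p 0.736). Ppargc1a, a coactivator of mitochondrial biogenesis, averaged 58.0 ± 26.1 CPM in BERKO and 39.9 ± 18.6 in WT (adjusted p 0.718), with reads in the promoter classes alone turning its sign.

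The other called features included 2 outside the genes already described. An unannotated feature on chromosome 6 at 79768098 (plus strand, spanning 79768079 to 79768344) had 12.15, 13.23, 13.62, 10.51 and 2.279 CPM in BERKO replicates 2 to 6, against a lowest of 29.06, a median of 71.27 and a highest of 115.1 in WT. All BERKO libraries were below the WT range, and the log2 change was -2.78 ± 0.46 (adjusted p 0.00913). A 3' UTR feature of Cx3cl1, the gene of the neuronal chemokine fractalkine whose receptor sits on microglia, lies on chromosome 8 at 97305336 (plus strand). It had 473.9, 453.7, 429.6, 498.2 and 357.7 CPM in BERKO replicates 2 to 6, against a lowest of 127.6, a median of 176.0 and a highest of 304.2 in WT. It rose by 1.15 ± 0.21 (adjusted p 0.0277), with no overlap, whereas Cx3cl1 summed over its features had a change of 0.50 ± 0.24 (adjusted p 0.600). The remaining called features were those of Dcaf17, Uqcrb and Cdk5r1. Features were refitted in 12 alternatives only, a filter at 10 CPM in 5 libraries and each mouse left out in turn. Other normalizations, other tools and thinning were not run on features. The first 4 features by p, both mitochondrial ones, the Dcaf17 3' UTR feature and the chromosome 6 feature, passed in all 12. The Cx3cl1 and Uqcrb features passed in 5 and the Cdk5r1 feature in 1.

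**Figure D2:**
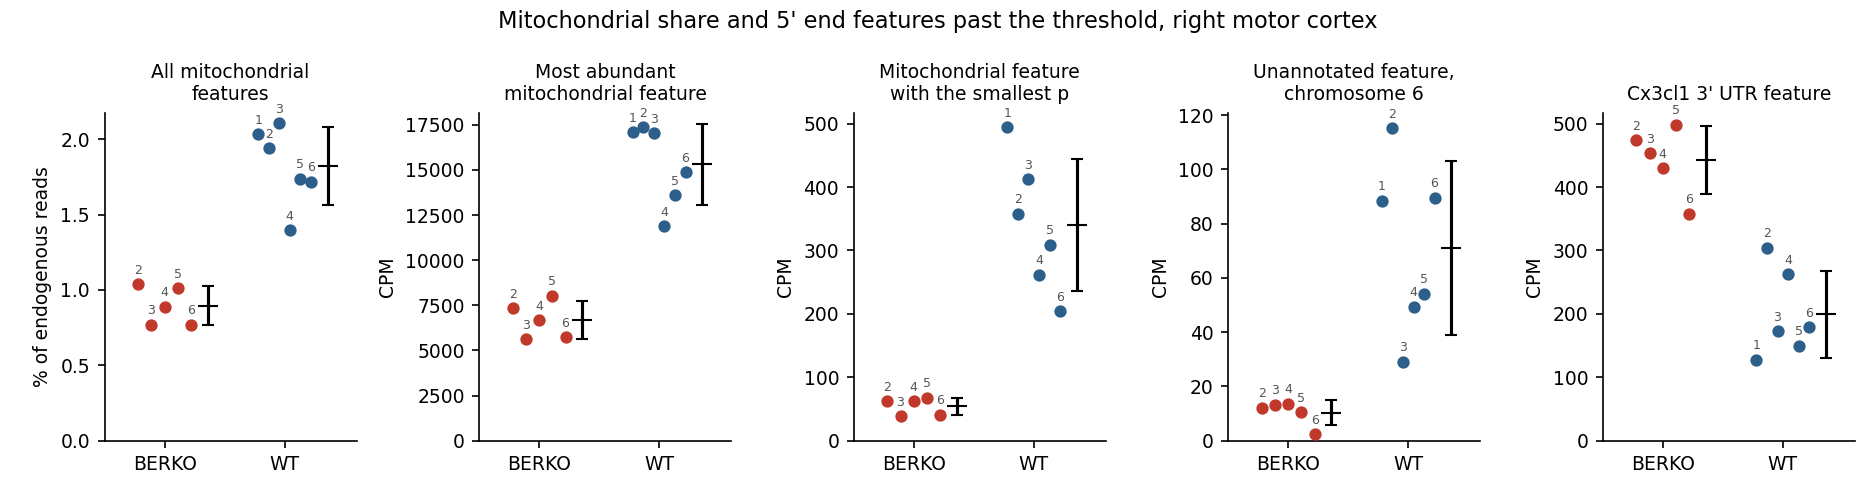
Mitochondrial share of endogenous reads (first panel, percent) and CPM of called 5' end features in each right biopsy, BERKO left of WT, with replicate numbers above the points and the mean and SD in black (n = 5 and 6). Mitochondrial reads and both mitochondrial features are lower in all 5 BERKO libraries than in any WT library, and the Cx3cl1 3' UTR feature is higher.

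The class of the features moved with genotype as a whole. Reads in 3' UTR features made up 6.693%, 7.526%, 6.560%, 7.813% and 6.597% of endogenous reads in BERKO replicates 2 to 6, against a lowest of 3.690%, a median of 5.187% and a highest of 5.813% in WT. The groups did not overlap (means 7.04% ± 0.59 in BERKO and 5.06% ± 0.81 in WT, SD, n = 5 and 6; exact permutation p 0.00216, the smallest the 462 splits allow, adjusted 0.0152). Reads in coding sequence (CDS) features made up 11.4% ± 1.3 in BERKO and 8.77% ± 1.22 in WT (exact permutation p 0.00866, adjusted 0.0303), with 4 of 5 BERKO libraries above all WT libraries. Such reads begin inside a transcript and not at its annotated start. On the left the 3' UTR share was 5.82% ± 0.82 in BERKO and 4.91% ± 1.15 in WT (exact permutation p 0.175), and the difference between the sides had a p of 0.305.

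The gene changes followed the class of a gene's largest feature by reads, which need not hold most of them (17.9% for Camkk2). This leading feature lay in a CDS or 3' UTR for 1359 of the 7696 genes tested (17.7%). It did so for 191 of the 341 genes higher in BERKO at an unadjusted p under 0.05 (56.0%), and for 15 of the 294 lower ones (5.1%). The median log2 change was 0.33 for the genes led by a CDS or 3' UTR feature, of which 74.6% were above 0. It was -0.07 for the other 6337 genes, of which 43.2% were above 0. These counts and medians rest on the same reads as the class shares above and are no separate finding. Cdk5r1 is led by a 3' UTR feature. The part of the read class in its change and in those below was not tested.

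**Figure D3:**
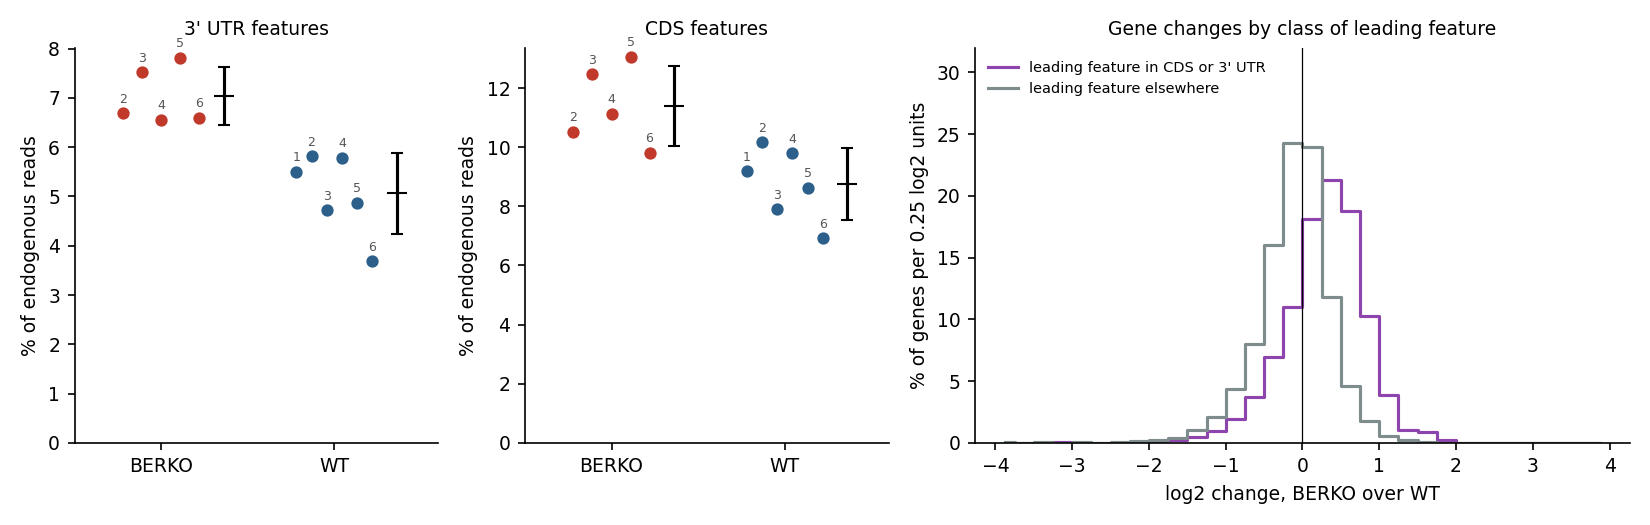
Share of endogenous reads in 3' UTR and CDS features in each right biopsy (percent, BERKO left of WT, mean and SD in black, n = 5 and 6), and the distribution of log2 changes for genes whose leading feature lies in a CDS or 3' UTR (1359 genes) or elsewhere (6337 genes). The CDS and 3' UTR genes are shifted to higher values in BERKO, with medians of 0.33 and -0.07.

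The genes that followed by p missed the threshold and are given by value. Of the 24 genes named by p, called genes included, 12 were above 0 and 12 below. The leading feature lay in a CDS or 3' UTR for 9 of the 12 above 0 and for 1 of the 12 below 0, which is Dcaf17.

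Camkk2, the kinase that activates CaM kinases and AMPK, had 335.9, 441.1, 320.2, 403.0 and 263.5 CPM in BERKO replicates 2 to 6, against a lowest of 66.98, a median of 162.7 and a highest of 252.3 in WT. All BERKO libraries were above the WT range, with a log2 change of 1.12 ± 0.24 and an adjusted p of 0.0985; with promoter features alone it was 0.45 (adjusted p 0.907). Nrgn, the calmodulin-binding protein neurogranin, had 2861, 2801, 2720, 3430 and 2089 CPM in BERKO, against a lowest of 923.9, a median of 1602 and a highest of 2175 in WT. Only BERKO replicate 6 fell within the WT range (change 0.79 ± 0.17, adjusted p 0.0985), and the change was 0.52 with promoter features alone (adjusted p 0.508). Ppp3ca, the catalytic subunit of calcineurin, averaged 665.0 ± 148.4 CPM in BERKO and 388.3 ± 94.7 in WT, and its change of 0.78 ± 0.19 turned to -0.23 with promoter features alone.

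Slc17a7 averaged 202.0 ± 46.2 CPM in BERKO and 107.4 ± 25.5 in WT (change 0.91 ± 0.22, adjusted p 0.152). Dynll2, a dynein light chain, averaged 192.2 ± 38.1 CPM in BERKO and 97.6 ± 21.2 in WT without overlap (change 0.98 ± 0.22, adjusted p 0.0985). Rabl6, a GTPase-like protein, had a change of 1.27 ± 0.27, Cbx6, a Polycomb chromobox protein, 0.73 ± 0.17, and Ptms, parathymosin, 0.86 ± 0.21. The leading features of all 8 of these genes lay in a CDS or 3' UTR. The 3 genes above 0 that were led by a start-site feature were Cck, Arpc2 and Gp1bb. Cck, the cholecystokinin neuropeptide, averaged 597.3 ± 190.2 CPM in BERKO and 335.0 ± 78.5 in WT without overlap (change 0.84 ± 0.20, adjusted p 0.152). Arpc2, a subunit of the Arp actin nucleator, had a change of 0.84 ± 0.20 and shares 510 bases at 96.1% with AC154544.1. Gp1bb, a platelet glycoprotein gene that overlaps Sept5, had a change of 1.30 ± 0.32.

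Genes below 0 were led by features at or before the start. Actr8, a subunit of the INO80 chromatin remodeller, averaged 80.1 ± 13.8 CPM in BERKO and 147.0 ± 22.5 in WT without overlap (change -0.87 ± 0.22, adjusted p 0.194). Snapc1, a subunit of the complex that drives small nuclear RNA genes, averaged 31.6 ± 9.42 CPM in BERKO and 77.1 ± 22.0 in WT without overlap (change -1.29 ± 0.31, adjusted p 0.152). Mettl17, a factor of mitochondrial ribosome assembly, averaged 9.33 ± 5.78 CPM in BERKO and 51.1 ± 35.8 in WT without overlap (change -2.45 ± 0.56, adjusted p 0.137). Uchl3, a deubiquitinase, averaged 55.6 ± 9.14 CPM in BERKO and 108.8 ± 24.3 in WT without overlap (change -0.96 ± 0.25, adjusted p 0.198); it shares 826 bases at 96.7% with Uchl4. Dhrs7, a short-chain dehydrogenase, had a change of -1.17 ± 0.27, and Krit1, a gene of cerebral cavernous malformation in humans, -2.21 ± 0.56. Fntb, the farnesyltransferase beta subunit, had a change of -3.33 ± 0.83 and Tbc1d19 of -2.10 ± 0.54. Cbx6, Snapc1, Mettl17 and Fntb overlap other genes, so their reads may be shared. Stretches of at least 80 bases were shared with 154 other genes for Mettl17, 97 for Actr8 and 67 for Rabl6. Krit1 shares 295 bases at 95.9% identity with Gm48740.

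Both hemispheres can be set side by side for these genes. In the left biopsies 0 of 6616 genes were called by edgeR (0%), and 447 had an unadjusted p under 0.05 (6.76%). The difference of the genotype change between the sides was called for 0 of 8308 genes (0%), with 271 at an unadjusted p under 0.05 (3.26%) and 0 by limma-voom. Nothing on the right was therefore shown to be particular to the right. The left values include the libraries labelled BERKO replicates 3 and 5, which held Esr2 reads. Left BERKO replicate 5 had 1 lane where the other libraries had 3, and held 239058 gene reads. Mettl17 had a left change of 0.55 ± 0.56, against -2.45 on the right (unadjusted p of the difference 0.00230), Uchl3 0.32 ± 0.31 on the left (p 0.00531) and Gp1bb -0.15 ± 0.33 (p 0.00516); the adjusted p was 0.998 for each. The smallest unadjusted p-values of the difference were those of Il1f9 (0.000507), Rwdd4a (0.00113) and Pgrmc1 (0.00127). Pgrmc1, a membrane progesterone-binding protein, averaged 347.8 ± 40.7 CPM in BERKO and 336.9 ± 73.7 in WT on the right. On the left it averaged 246.9 ± 48.7 CPM in BERKO and 485.7 ± 218.1 in WT (change -0.97 ± 0.26).

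Of 7 genes that an earlier look at these data called with both biopsies of a mouse summed, Cdk5r1, Uqcrb and Rpl22l1 passed on the right alone, and the other 4 missed the threshold. Cdkn1a, an inhibitor of cyclin-dependent kinases, averaged 117.8 ± 12.2 CPM in BERKO and 50.7 ± 29.3 in WT without overlap (change 1.22 ± 0.32, adjusted p 0.215). Cdkn1a shares stretches of at least 80 bases with 122 other genes, the longest 142 bases at 95.8% identity. Lingo1, a membrane protein that restrains myelination, averaged 268.1 ± 54.6 CPM in BERKO and 151.9 ± 67.9 in WT (change 0.83 ± 0.26, adjusted p 0.424), with a change of 0.40 for promoter features alone. Arpc2 and Gm15421 are given above.

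**Figure D4:**
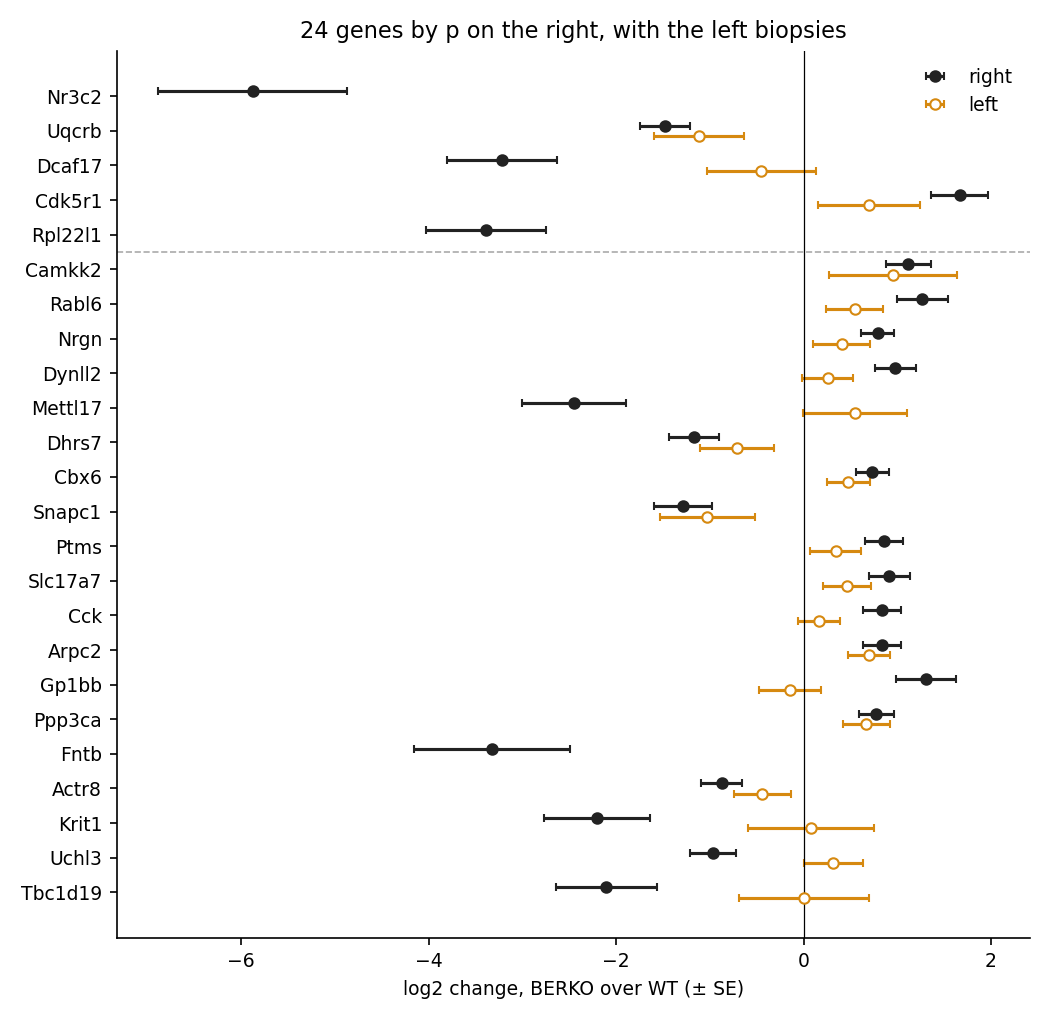
Log2 change of BERKO over WT with its SE for the 24 genes named by p on the right (filled, 5 BERKO and 6 WT biopsies) and in the left biopsies of the same mice (open). The 5 genes above the dashed line passed on the right; Nr3c2, Rpl22l1 and Fntb were not tested on the left, and no gene passed there.

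Markers of glia and vessels lay above 0 in BERKO without a call. In bulk tissue, a change in the number of cells of a type and a change in RNA per cell cannot be told apart. Of 24 astrocyte markers tested, 21 were above 0 (48.7% of all genes tested were) with a median of 0.31. Clu, the chaperone clusterin, had a change of 0.47 ± 0.18 and Ntsr2, an astrocytic neurotensin receptor, 0.53 ± 0.21. Of 21 microglial markers 18 were above 0, also with a median of 0.31. Fcer1g, a signalling chain of immune receptors, averaged 61.6 ± 3.0 CPM in BERKO and 27.8 ± 11.4 in WT without overlap (change 1.14 ± 0.35, adjusted p 0.402), and Ctss, a lysosomal protease, had a change of 0.55 ± 0.20.

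All 13 endothelial markers tested were above 0 with a median of 0.39; Cldn5, the tight junction protein of the blood-brain barrier, had a change of 0.64 ± 0.26 and Ly6a 0.81 ± 0.54. All 7 pericyte and smooth muscle markers tested were above 0 with a median of 0.70. Their summed level over the list of 15 was 445.0 to 755.5 CPM in BERKO and 244.2 to 437.9 in WT, without overlap, and Abcc9, Anpep and Notch3 of the list were at 0 in all 11 libraries. Rgs5, which marks pericytes, averaged 205.3 ± 24.04 CPM in BERKO and 126.7 ± 41.0 in WT (change 0.70 ± 0.22, adjusted p 0.424), and Acta2, smooth muscle actin, 49.99 ± 44.5 CPM in BERKO and 21.9 ± 9.90 in WT. Of 13 meningeal fibroblast markers 12 were above 0, with a median of 0.60; Slc22a6 had a change of 1.56 ± 0.65 and Nupr1 of 0.65 ± 0.33. The summed fibroblast level was 3606 to 11810 CPM in BERKO and 1381 to 7196 in WT. Most of this sum was 1 gene: Ptgds averaged 6917 of 7551 CPM in BERKO and 5190 of 5623 in WT. Without WT replicates 1 and 3 these medians were 0.21 for astrocytes, 0.16 for microglia, 0.12 for endothelium, 0.52 for pericytes and 0.46 for fibroblasts. The part of these markers in the called genes was not tested.

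Myelin genes were centred near 0 in BERKO: 14 of 23 were above 0 and the median was 0.03, moving between -0.17 and 0.44 as 1 mouse was left out and to -0.33 without WT replicates 1 and 3. Ppp1r14a had a change of -0.80 ± 0.79 and Car2 of -0.26 ± 0.33. Of 7 precursor markers 3 were above 0 with a median of -0.0038; Sox10, the transcription factor of the lineage, averaged 6.69 ± 4.16 CPM in BERKO and 26.8 ± 13.4 in WT without overlap (change -1.96 ± 0.57, adjusted p 0.320), while Cspg5, a proteoglycan, had a change of 0.77 ± 0.22.

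Excitatory neuron markers were above 0 for 11 of 15, with a median of 0.24, led by Slc17a7 and Nrgn; Neurod1 went the other way with -1.28 ± 0.59. The summed level of the list was 4495 to 6801 CPM in BERKO and 3182 to 4961 in WT. Most of this sum was Nrgn and Camk2a, which averaged 2780 and 2194 of 6045 CPM in BERKO and 1608 and 1411 of 4052 in WT. Interneuron markers were above 0 for 6 of 11, with a median of 0.04. The summed level of this list was 2392 to 3621 CPM in BERKO and 1802 to 2695 in WT, with overlap. Cck, with the smallest p of the list, was higher in BERKO (change 0.84 ± 0.20), as was Npy (0.57 ± 0.25). Gad1, the enzyme that makes GABA, averaged 125.8 ± 19.2 CPM in BERKO and 190.1 ± 25.7 in WT without overlap (change -0.59 ± 0.20, adjusted p 0.445), whereas the other GABA enzyme gene, Gad2, had a change of -0.02 ± 0.23. Few markers of other tissue were tested: 4 striatal ones with a median of 0.63, with Penk at 0.76 ± 0.43 and Rasd2 at 0.78 ± 0.53. Of 2 choroid plexus genes, Ttr had a change of -0.69 ± 0.95 and Rarres2 of -0.44 ± 0.50, and the 1 blood gene tested, Alas2, of 0.38 ± 0.67.

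Synaptic and channel lists held no call. Of 34 glutamate synapse genes 19 were above 0 (median 0.10), of 20 inhibitory synapse genes 10 (0.00), of 34 synaptic vesicle genes 22 (0.11) and of 38 channel genes 23 (0.14). Vamp2, the vesicle SNARE, averaged 428.8 ± 34.9 CPM in BERKO and 272.4 ± 55.5 in WT without overlap (change 0.65 ± 0.17, adjusted p 0.216). Nlgn2, the adhesion protein of inhibitory synapses, averaged 90.0 ± 10.95 CPM in BERKO and 48.5 ± 7.20 in WT without overlap (adjusted p 0.282). The potassium channel genes Kcnh1 and Kcnj4 had changes of 1.11 ± 0.30 and 0.97 ± 0.33. Rims1, an active zone scaffold, had -1.82 ± 0.65, with overlap of the groups. Its CPM was 93.91 in WT replicate 3, against 7.867 to 28.97 in the other WT libraries and 4.373 to 13.19 in BERKO. Its leading feature lay in an intron and held 43.0% of its reads. Vamp2, Nlgn2, Kcnh1 and Kcnj4 were all led by a 3' UTR feature, and with promoter features alone the medians of the glutamate, inhibitory, vesicle and channel lists were -0.23, -0.11, -0.03 and -0.19.

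Of 39 axon cytoskeleton genes 33 were above 0 with a median of 0.24, led by Dynll2 and by Mark2, a kinase of microtubule-associated proteins (0.96 ± 0.25). Of 26 genes around Arp-driven actin nucleation 17 were above 0 (median 0.08), Nckap1, a subunit of the WAVE complex, having 0.74 ± 0.28. Of 14 genes of Lingo and Nogo receptor signalling 10 were above 0 (median 0.13), with Rtn4r, the receptor itself, at 1.04 ± 0.34. Immediate early genes were above 0 for 12 of 15, with a median of 0.39 that became -0.06 with promoter features alone. Bdnf, the neurotrophin, had 0.87 ± 0.33 and Homer1, a postsynaptic scaffold, 1.18 ± 0.45.

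The p53 and Cdkn1a list was below 0 for 8 of 13 genes, with a median of -0.29 that became 0.04 with promoter features alone; Mdm2, the ubiquitin ligase of p53, had -1.64 ± 0.63. Cholesterol synthesis genes were above 0 for 11 of 21 (median 0.02), Msmo1 having -0.41 ± 0.19 and Tm7sf2 1.26 ± 0.57. Clock genes were above 0 for 10 of 13 (median 0.07). Dbp, a clock output factor, averaged 19.4 ± 7.56 CPM in BERKO and 3.78 ± 4.72 in WT (change 2.33 ± 0.76, adjusted p 0.445), and Cry2, a clock repressor, had 0.82 ± 0.33. Interferon and MHC class I genes were above 0 for 9 of 15 (median 0.12), with Ifitm2 at 1.39 ± 0.63 and Tap2 at -0.99 ± 0.62. Heat shock genes were above 0 for 14 of 25 (median 0.09), with Hsp90aa1 at 0.29 ± 0.16 and Dnajb1 at -0.53 ± 0.33.

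**Figure D5:**
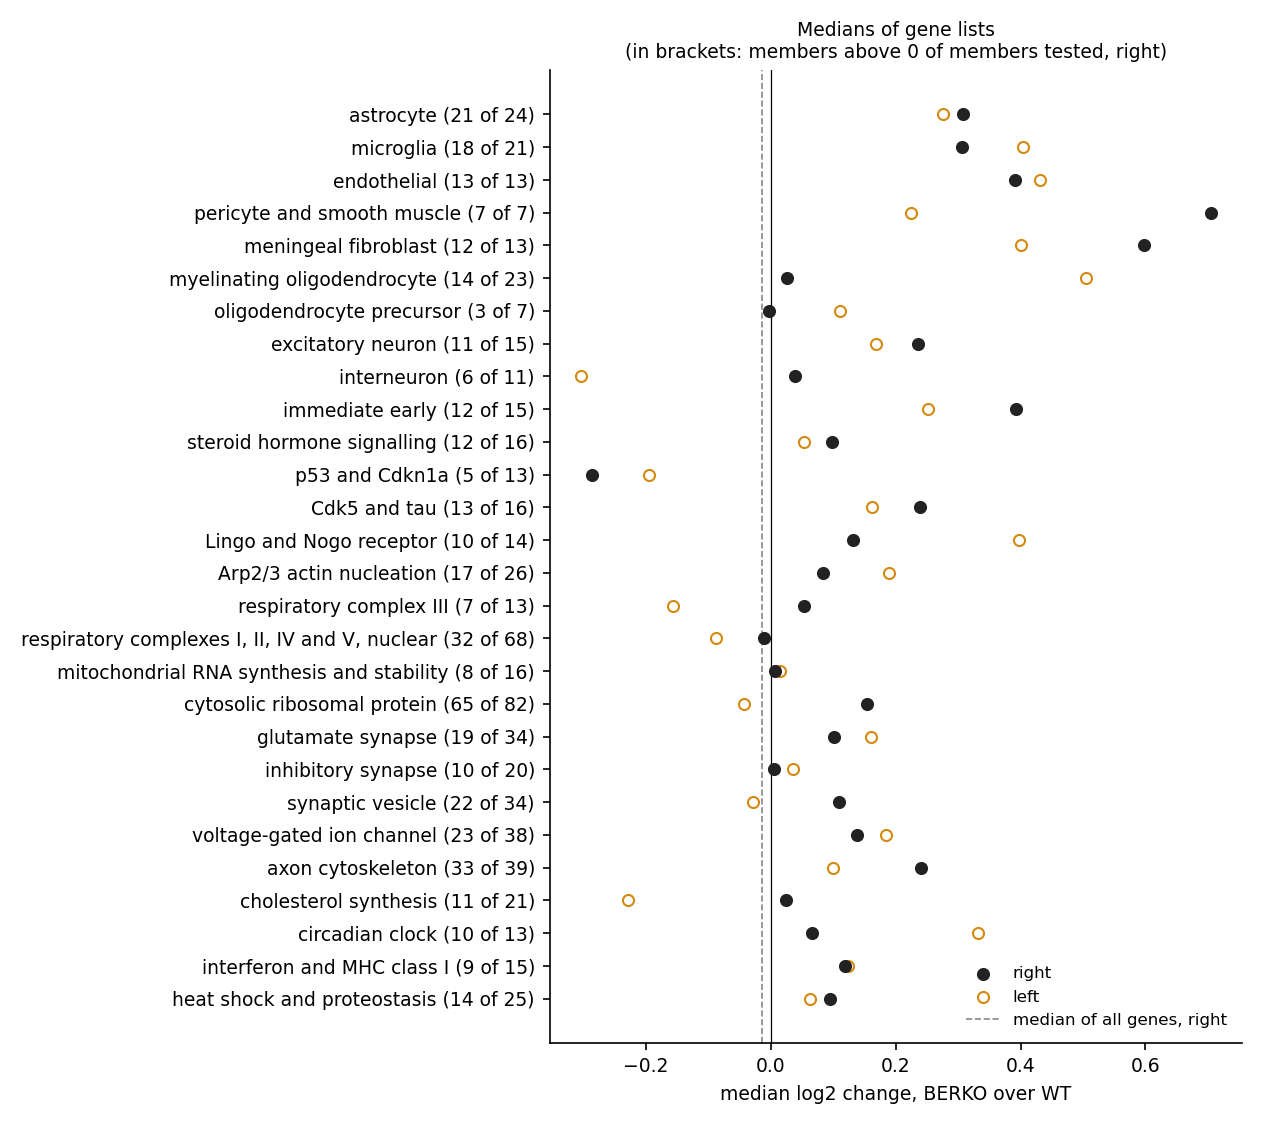
Median log2 change of BERKO over WT for each gene list with 5 or more members tested, on the right (filled) and the left (open), with the right median of all genes as a dashed line. In brackets stand the members above 0 and the members tested on the right; the pericyte list has the highest median (0.70) and the p53 list the lowest (-0.29).

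Several list medians hung on single libraries. Without WT replicates 1 and 3 the median was 0.05 for the cytosolic ribosomal genes, 0.18 for the immediate early genes, 0.13 for the axon cytoskeleton, 0.13 for excitatory neurons, 0.03 for synaptic vesicles and 0.01 for actin nucleation, each nearer 0 than with them. It was farther above 0 for interneurons (0.29), the Lingo list (0.42), channels (0.36), glutamate synapses (0.17) and clock genes (0.15). It was -0.11 for the p53 list, -0.12 for cholesterol synthesis, -0.06 for complex III and -0.016 for interferon and MHC class I.

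Leaving out 1 mouse at a time moved the median between 0.019 and 0.42 for clock genes, between 0.065 and 0.54 for the Lingo list, between -0.14 and 0.38 for interneurons and between -0.024 and 0.29 for channels. It lay between -0.28 and 0.0035 for the p53 list, between 0.11 and 0.35 for excitatory neurons and between 0.22 and 0.52 for immediate early genes. With promoter features alone the clock median was -0.27 and the Lingo median -0.011. The signs of the interneuron, channel, p53, clock and Lingo medians thus turned under at least 1 of these settings. So did those of the immediate early, glutamate synapse, inhibitory synapse, synaptic vesicle, myelin, precursor, cholesterol and interferon lists. The same holds for complex III, the other respiratory complexes and the mitochondrial RNA list.

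Total and spike-in reads also moved with genotype. Spike-in reads numbered 1239 ± 107 in BERKO and 2428 ± 546 in WT (SD, n = 5 and 6; exact permutation p 0.00216, adjusted 0.0152), without overlap. Total reads were 836800 ± 129100 in BERKO and 1347000 ± 421300 in WT (exact permutation p 0.0216, adjusted 0.0433). Endogenous reads per spike-in read were 676.1 ± 125.3 in BERKO and 559.3 ± 164.0 in WT (exact permutation p 0.216). With spike-in totals as the scale, the median of all genes was 0.21 in place of -0.01. Relative to that shift the called genes kept their direction, and Nr3c2 and Cdk5r1 still passed (adjusted p 0.0216 each). With every right library thinned to 626499 gene reads, 0 genes were called by edgeR (576 had an unadjusted p under 0.05). Uqcrb, Cdk5r1 and Rpl22l1 then each had an adjusted p of 0.0757 and Dcaf17 of 0.0894. Nr3c2 did not pass the expression filter after thinning and was not tested.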

How the data were processed

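Read counts, as whole numbers for each lane and 5' end feature, are what the authors deposited; per the submitters' processing notes, build mm9, Bowtie and TopHat2 2.0.12 were used, and the roles, filters and strand handling are not given in the sources used here. All 64 count columns were assigned to biopsies through their names, which carry side, genotype and a last digit read as the mouse. The 3 lanes of each right biopsy were summed, since the chi-square per gene between lanes 1 and 3 was 0.837 to 0.948; right biopsies of a genotype had at least 6.06. Of 112460 features, 38 spike-ins, 19 features on spike-in sequences and 37 on a ribosomal repeat were left out of the tests, and 95410 features with a single symbol were added up to 15297 genes. The remaining features, with no symbol or more than 1, took 5.10% of endogenous reads and entered the feature test only. The deposited table of ratios was not used.

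Genes and features were tested with edgeR 4.0.16 in R 4.3.3 (two-sided quasi-likelihood test, robust dispersion, threshold 0.05 after Benjamini-Hochberg adjustment; TMM factors 0.962 to 1.11; default filter). SE was obtained from the log2 change and the F statistic. Left biopsies were tested alike, and the difference between sides with the mouse as a block. Shares were compared by two-sided exact permutation over 462 splits. The biological coefficient of variation was 41.7%. In a test on simulated data for this comparison with 7286 genes, 78.7% of genes changed 4-fold and 28.1% of those changed 2-fold were recovered, and 4 unchanged genes were called. Far more genes were changed in the simulation than were called in the data, which eases the adjusted threshold. These shares may therefore overstate the recovery in the real comparison. Counts are reads after PCR, so intervals (95%, exact) and floors (3 counts) cover counting error only. Replicates are separate mice, so p-values measure the spread between these mice; litters and cages are not given.

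Members and lists were chosen with earlier results of these data known, so 31 lists are described by counts and medians, without tests. Named genes were every called gene, then genes by p with a mean of 10 reads in the higher genotype until 24, the 2 members with the smallest p per list, Esr2, the 3 smallest p for the difference between sides, called features, and 7 genes called earlier in these data; other list members and mitochondrial features were chosen after their values were seen. Shared stretches (80 bases, 95% identity) came from BLAST+ 2.17.0 on GENCODE transcripts, and promoters from RefSeq, which held 3 of the 5 called genes. Alternatives for genes were other normalizations, filters and tools (DESeq2 1.42.0, limma 3.58.1), promoter features, thinning, all 22 biopsies, a replicate block and each mouse left out. Leaving out WT replicates 1 and 3 was added after seeing the data. Those for features were the stricter filter and each mouse left out.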

Additional observations from a re-analysis of the deposited data

Results flagged for a closer look

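In groups of 5 or 6 libraries, a single library stood far from the others for 6 values out of 82 groups looked at, where chance gives about 1 in 20. The 1.199 CPM of Nr3c2 in BERKO replicate 4 is 1 read, with 0 in the other 4 BERKO libraries. Krit1 had 20.39 CPM in BERKO replicate 4, against 2.878 to 6.751 in the other BERKO libraries. Uchl3 had 156.1 CPM in WT replicate 1, against 93.53 to 113.7 in the other WT libraries. Tbc1d19 had 7.476 CPM in WT replicate 4, against 30.42 to 40.69. WT replicate 3 had 3483 spike-in reads, against 1902 to 2394 in the other WT libraries. Its intron reads made up 3.96% of endogenous reads, against 1.795% to 2.447%.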

How the results depend on the processing

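The count of 5 called genes became 12 with DESeq2, 2 with limma-voom, 17 with no filter on low counts, 3 with spike-in scaling and 0 with promoter features alone, with thinning or in one fit of all 22 biopsies, where 411, 576 and 539 genes had an unadjusted p under 0.05. It was 1 with the replicate block on mice 2 to 6 and 3 without WT replicates 1 and 3, and 0 to 6 with 1 mouse left out. RLE size factors and a filter at 10 CPM in 5 libraries gave 5 each. Called features numbered 4 to 11 with 1 mouse left out. The causes were not tested. Same-numbered mice of the 2 genotypes correlated by -0.0619 to 0.0323 in their deviations, so the number does not pair them. Nr3c2 passed in 7 of the 12 alternatives that tested it, Uqcrb in 11 of 22, Dcaf17 in 8 of 20, Cdk5r1 in 9 of 21 and Rpl22l1 in 6 of 22.

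With 1 mouse left out, the difference of BERKO minus WT ranged from 2.222 to 3.034 percentage points for CDS reads, from -1114 to -755.8 for genes with a read, from -0.1809 to -0.1255 percentage points for mitochondrial reads without the leading feature and from -609500 to -375300 for total reads; each missed the threshold in at least 1 of these. Signs turned for uncalled genes. With promoter features alone Ppp3ca had -0.23, Nckap1 -0.10 and Ppargc1a -0.077. With the replicate block Ttr had 0.42 and Il1f9 0.58. Without WT replicates 1 and 3 Ttr had 0.44, Alas2 -0.016, Ssbp1 0.25 and Il1f9 0.47. With 1 mouse left out, the range was -0.42 to 0.040 for Car2, -1.40 to 0.65 for Ttr, -1.17 to 0.63 for Il1f9, -0.0052 to 0.18 for Pgrmc1, and -0.350 to 0.028 percentage points for unannotated nuclear reads. Depth limits genes such as Esr2, for which 0 reads allow 3.28 to 5.06 CPM in the BERKO libraries.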
